A study of Mus musculus with 4 samples.

Results

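The insulin-like growth factor (IGF) genes described here are 9 genes on the MouseWG-6 v2.0 array, the ligand IGF1, the receptors IGF1R and IGF2R, and the binding proteins IGFBP2 to IGFBP7. They are 9 of the 30854 symbols on the chip and were chosen with earlier results of these data known. Every probe that the table of signals assigns to one of the symbols was taken, whatever its signal, which gave 22 of the 45281 probes of the chip. Of these, 17 were bright enough to be tested and cover all 9 genes. RNA came from the anterior and the posterior lobes of the cerebellum of Swiss mice at postnatal day 7 (PN7), for which the labels state no treatment or genetic change, and each lobe is represented by 2 samples with 1 array each. The labels give neither the sex of the animals nor whether samples came from separate animals or pools, so the p-values measure only the spread between these samples.

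IGF1 and IGF2 are secreted growth factors that act through the IGF1 receptor, a tyrosine kinase on the cell surface, to promote proliferation and survival. The IGF2 receptor, which is also the mannose 6-phosphate receptor, carries IGF2 to the lysosome instead of signalling through a kinase. IGF binding proteins are secreted and hold the ligands outside the cell, and proteases that cleave them release the ligands. In the postnatal cerebellum IGF signalling is known to act with Sonic hedgehog on the proliferation of granule neuron progenitors, and Purkinje cells are a source of IGF1.

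Each probe is a short DNA sequence carried by beads on the chip, and its intensity is the average over those beads. Signals below are log2 of the intensity after quantile normalization between the arrays, and a probe was called detected where the share of negative controls that reached its brightness, its detection p-value, was under 0.05. The median intensity per array lay between 110.2 and 129.6 with a median bead number of 40 to 42, and 46.53% to 47.64% of the probes were detected. The number of arrays limits the precision, since with 2 arrays a lobe the smallest two-sided p of an exact permutation test is 0.33. The anterior arrays differed more from each other than the posterior arrays, with an SD of 0.318 against 0.203 for the log2 difference between replicates over the 21726 tested probes. The arrays also differed by replicate number. XIST (ILMN_1224091) had an intensity of 6600.7 and 5616.7 on the anterior and posterior array of replicate 1 and of 83.9 and 102 on those of replicate 2, and DDX3Y (ILMN_2899599) of 751.3 and 757.4 against 4005.1 and 4481.3. EIF2S3Y had 61 and 71 against 723.6 and 1055.9 with ILMN_1241001, and 127.4 and 133.2 against 142.2 and 175.2 with ILMN_1215914. The spread within each lobe thus includes whatever sets the replicate numbers apart. Of the markers of cerebellar cells, 8 of 9 genes of granule neurons and their progenitors, 4 of 7 of Purkinje cells and 7 of 8 of Bergmann glia and astrocytes were tested. ATOH1, CALB1, PCP4, CAR8 and S100B were not detected on any array.

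The probe of IGFBP6 and one probe each of IGFBP2 and IGFBP3 were higher in the posterior lobes, at least 2.26-fold, 1.38-fold and 1.30-fold. These 3 of the 17 tested probes passed the criterion that the study's methods give, more than 1.2-fold at an unadjusted p below 0.05, here from limma, and 0 were lower by it. The same criterion called 8.29% of all tested probes, 3.3% as higher and 5% as lower. None of the 17 passed an adjusted p of 0.05 by limma (Benjamini-Hochberg over all tested probes, 0.106% called, 0.0736% as higher and 0.0322% as lower), while 4 had an unadjusted p under 0.05 (10.1% of all tested probes). With the methods' t-test 0 of all 21726 tested probes passed an adjusted p of 0.05, so none of the 17 did. By that test 2 of the 17 passed the 1.2-fold criterion, as did 3.41% of all tested probes. At 1.5-fold 1 probe, that of IGFBP6, was higher, as were 0.782% of all tested probes. It entered the test only through its detection on the posterior arrays, which limits what its place in these counts can show. Of the 17 probes 13 were higher in the posterior lobes, with a median log2 difference of 0.14 against 0.00 over all tested probes, of which 50.6% were higher. The groups did not overlap for 8 of the 17 probes, 6 higher and 2 lower in the posterior lobes, against 42.6% of all tested probes, 21.1% higher and 21.5% lower. The number of probes past the 1.2-fold criterion rested on single arrays. It was 4 without anterior replicate 1, where 22.1% of all tested probes passed, 7 without anterior replicate 2 (9.17%), 1 without posterior replicate 1 (3.58%) and 0 without posterior replicate 2 (3.8%).

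**Figure D1:**
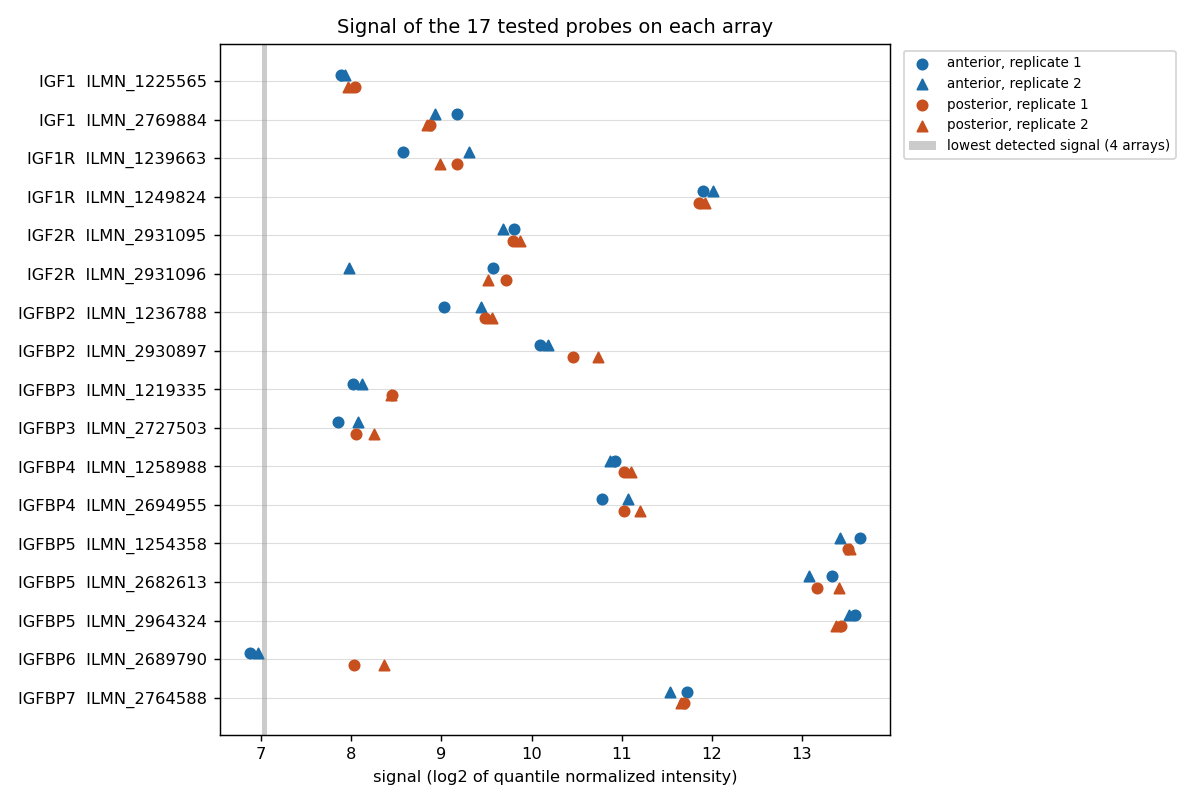
Signal of each of the 17 tested probes on the 4 arrays, as log2 of the quantile normalized intensity, with circles for replicate 1, triangles for replicate 2 and a grey band at the lowest signal among detected probes. The anterior arrays of IGFBP6 lie left of the band at 6.88 and 6.97 and the posterior ones right of it, and one IGF2R probe has a single low array, anterior replicate 2.

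IGFBP6 encodes a binding protein that prefers IGF2 over IGF1. Its only probe on the chip (ILMN_2689790) had an intensity of 125.7 and 113.3 on the anterior arrays of replicates 1 and 2, with detection p-values of 0.083 and 0.067, and of 259.2 and 328.2 on the posterior arrays, brighter there than all negative controls. Both anterior values were thus below the limit of detection, and both posterior values were more than 2-fold above them. The normalized log2 signal was 6.88 and 6.97 in the anterior lobes (mean 6.92 ± 0.062, SD, n = 2 arrays) and 8.03 and 8.36 in the posterior lobes (mean 8.20 ± 0.24). Because the anterior signal is not above background, only a lower bound of the difference is given, from the posterior mean and the lowest signal among detected probes of each anterior array. By this bound the posterior signal of IGFBP6 was at least 2.26-fold higher. The probe entered the test only through its detection on both posterior arrays, where it is high. Its p-values and their rank are therefore a description and lend the difference no further support. The measured log2 difference of 1.28, which takes the anterior background as signal, had an adjusted p of 0.062 by limma (unadjusted p = 0.00012). Of all tested probes, 39 or 0.18% had an unadjusted p as low as this or lower. Of the 22 probes of these genes, that of IGFBP6 was the one that passed detection in the posterior lobes on both arrays and on no anterior array, a pattern of 0.214% of all probes on the chip. Between arrays of the same replicate number the measured log2 difference was 1.15 for replicate 1 and 1.40 for replicate 2. The adjusted p was 0.0036 without normalization between the arrays and 0.026 without a filter on dim probes, so which side of 0.05 it fell on depended on these choices.

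IGFBP2, an abundant binding protein of the cerebrospinal fluid that is expressed in the meninges and the choroid plexus, was measured by a pair of probes. ILMN_2930897 had a log2 signal of 10.09 and 10.18 on the anterior arrays and of 10.46 and 10.74 on the posterior arrays. The groups did not overlap, and the posterior array of replicate 2 was the highest. The log2 difference was 0.46 (standard error 0.12, adjusted p = 0.33 by limma), which is 1.38-fold, and it was 0.37 within replicate 1 and 0.55 within replicate 2. With the methods' t-test this probe no longer passed the 1.2-fold criterion (unadjusted p = 0.087). ILMN_1236788 had 9.03 and 9.44 in the anterior and 9.49 and 9.56 in the posterior lobes. It was higher on both posterior arrays too, but the anterior arrays were further apart from each other than the nearest anterior and posterior arrays. Its log2 difference was 0.28 with a 95% confidence interval from -0.11 to 0.68 (adjusted p = 0.60 by limma).

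IGFBP3, the main carrier of IGFs in the blood, was also measured by a pair of probes. The probe ILMN_1219335 gave 8.02 and 8.12 in the anterior lobes and 8.45 and 8.45 in the posterior lobes, without overlap. The log2 difference was 0.38 (standard error 0.12, adjusted p = 0.39 by limma), or 1.30-fold. Without normalization between the arrays it was 0.37 and the probe no longer passed the 1.2-fold criterion (unadjusted p = 0.059 by limma). With ILMN_2727503 the signals were 7.85 and 8.08 in the anterior and 8.05 and 8.26 in the posterior lobes, so the groups overlapped, and the log2 difference of 0.19 had an interval from -0.16 to 0.54. Both probes of IGFBP3 were higher by a similar amount within replicate 1 and within replicate 2, by 0.43 and 0.33 for the former and by 0.20 and 0.18 for the latter.

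The 250 bases before the annotated start of the 3 genes with a probe past the 1.2-fold criterion are shown. That criterion alone groups these genes, and a joint change of their signals was not tested. All 9 genes had an entry in the RefSeq promoter table of the mouse assembly GRCm38.p6. Capitals mark the GC box GGGCGG, the TATA box TATAAA and the motif CCAAT on either strand, which do not overlap one another in these windows. The windows lie at chr15:102143936-102144185 on the plus strand for IGFBP6, at chr1:72824230-72824479 on the plus strand for IGFBP2, which has another annotated start in the table, and at chr11:7213924-7214173 on the minus strand for IGFBP3.
IGFBP6: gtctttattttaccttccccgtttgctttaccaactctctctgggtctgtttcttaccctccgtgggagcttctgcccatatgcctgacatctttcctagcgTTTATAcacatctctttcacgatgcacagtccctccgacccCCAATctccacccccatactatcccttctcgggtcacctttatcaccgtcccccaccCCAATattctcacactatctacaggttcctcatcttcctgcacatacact
IGFBP2: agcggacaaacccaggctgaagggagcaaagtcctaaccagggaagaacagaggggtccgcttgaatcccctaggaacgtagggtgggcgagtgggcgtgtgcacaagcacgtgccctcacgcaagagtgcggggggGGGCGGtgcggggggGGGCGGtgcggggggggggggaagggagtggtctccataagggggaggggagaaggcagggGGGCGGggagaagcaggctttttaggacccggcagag
IGFBP3: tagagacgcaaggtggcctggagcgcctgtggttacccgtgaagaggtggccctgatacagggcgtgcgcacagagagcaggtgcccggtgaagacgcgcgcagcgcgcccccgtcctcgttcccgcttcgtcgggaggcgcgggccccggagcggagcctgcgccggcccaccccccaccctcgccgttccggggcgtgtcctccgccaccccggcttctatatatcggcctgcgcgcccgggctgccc
The windows had little in common. That of IGFBP6 held CCAAT at 2 places, a TATAAA on the opposite strand and no GGGCGG, that of IGFBP2 held GGGCGG at 3 places, the window before its other start (chr1:72825137-72825386, not printed) none of the motifs at a GC content of 56.4%, and that of IGFBP3 held none of the motifs. Of 32851 windows of this length in the table, 32.7% held GGGCGG, 12.4% TATAAA and 33.8% CCAAT. The GC content of the 3 windows, in the order printed, was 49.6%, 67.2% and 73.2%, against a median of 52.4% over all windows. Among the other members IGFBP4 had a TATAAA starting 28 bases before the start, and IGF1R, IGF2R and IGFBP7 held GGGCGG at 2, 3 and 4 places. A match of letters is a description of the window and not a binding site.

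The remaining binding proteins did not pass the criterion. IGFBP4, which inhibits IGF action until proteases such as PAPP-A cleave it, was measured by a pair of probes with nearly the same difference. ILMN_1258988 gave 10.92 and 10.87 in the anterior and 11.03 and 11.11 in the posterior lobes, without overlap, and a log2 difference of 0.17 (interval -0.03 to 0.38, adjusted p = 0.56 by limma). ILMN_2694955 gave 10.78 and 11.07 against 11.02 and 11.21, with overlap, and a log2 difference of 0.19. The interval of the latter ran from -0.12 to 0.51 (adjusted p = 0.65 by limma).

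IGFBP5, a binding protein that also attaches to the extracellular matrix, had 3 probes, with intensities between 7950.4 and 13692.9. ILMN_1254358 had log2 signals of 13.64 and 13.42 in the anterior and 13.51 and 13.53 in the posterior lobes, and the posterior values lay between the anterior ones. ILMN_2682613 had 13.33 and 13.08 against 13.17 and 13.40, which overlapped as well. With ILMN_2964324 the signals were 13.59 and 13.52 in the anterior and 13.43 and 13.38 in the posterior lobes, so both posterior arrays were lower. The log2 differences were -0.00 (interval -0.21 to 0.20), 0.08 (-0.20 to 0.37) and -0.15 (-0.30 to -0.00). The last of them had an unadjusted p of 0.048 by limma at 1.11-fold, under the 1.2-fold of the criterion, and an adjusted p of 0.49. In the mouse annotation IGFBP5 is the next protein-coding gene to IGFBP2 on chromosome 1, and IGFBP3 is next to IGFBP1 on chromosome 11, of which no probe was detected on any array.

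IGFBP7, a relative with low affinity for IGFs that blood vessels secrete, has 5 probes on the chip, of which ILMN_2764588 was detected on all 4 arrays and the other 4 on none. Its signals were 11.73 and 11.54 in the anterior and 11.70 and 11.66 in the posterior lobes. Both posterior values fell between the anterior values, and the log2 difference was 0.05 (interval -0.18 to 0.27, adjusted p = 0.89 by limma).

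**Figure D2:**
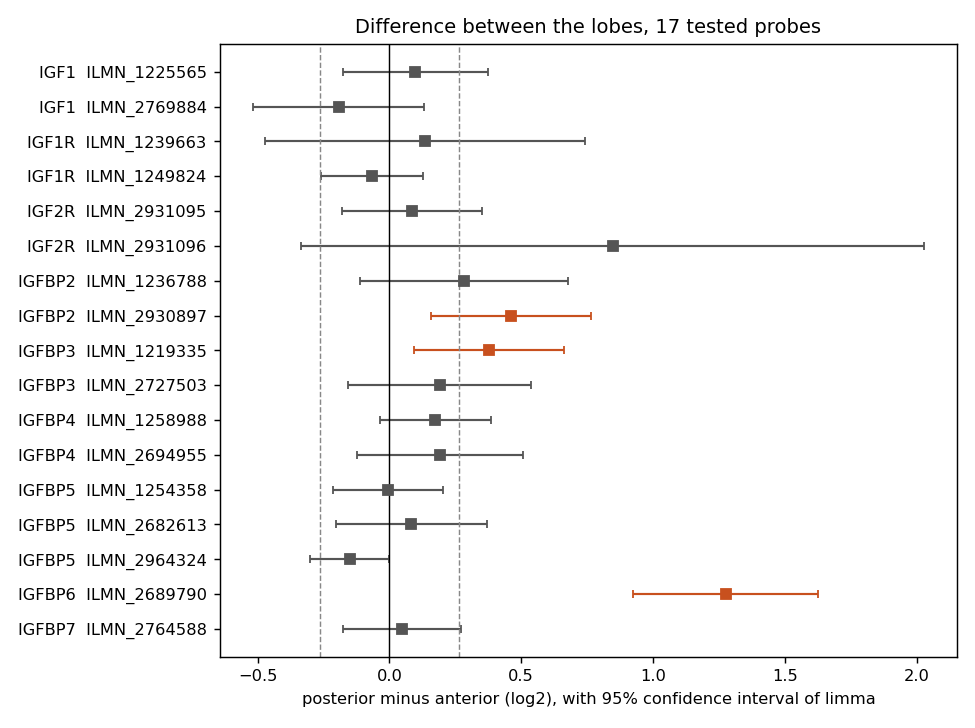
Log2 difference, posterior minus anterior, of the 17 tested probes with the 95% confidence interval from limma. Dashed lines mark 1.2-fold in either direction, orange the probes past the 1.2-fold criterion, among which IGFBP6 stands at 1.28 from an anterior signal that is background, and the widest interval is that of IGF2R ILMN_2931096.

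The ligand and the receptors gave no probe past the criterion, although one IGF2R probe passed it under other settings given with its values. IGF1 had 3 probes, of which ILMN_2647594 was not detected on any array. The other probes of IGF1 disagreed in direction. ILMN_1225565 had 7.89 and 7.93 in the anterior and 8.05 and 7.97 in the posterior lobes, both posterior arrays being slightly higher, while ILMN_2769884 had 9.17 and 8.93 against 8.87 and 8.85, both posterior arrays being lower. The log2 differences were 0.10 (interval -0.18 to 0.37) and -0.19 (-0.52 to 0.13), with adjusted p-values of 0.80 and 0.65 by limma.

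IGF1R, the receptor for both ligands, was measured with ILMN_1249824 at 11.91 and 12.01 in the anterior and 11.86 and 11.93 in the posterior lobes. The groups overlapped and the log2 difference was -0.07. Its interval from -0.26 to 0.13 leaves out 1.2-fold differences in either direction, on the lower side only narrowly. Its other probe ILMN_1239663 had 8.58 and 9.31 in the anterior and 9.18 and 8.98 in the posterior lobes. Here the anterior arrays were the lowest and the highest of the 4, and the log2 difference of 0.14 had an interval from -0.47 to 0.74. Within replicate 1 this probe was higher in the posterior lobes by 0.60 and within replicate 2 lower by -0.33, so its direction was not shared by the replicates.

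The probes of IGF2R behaved differently from each other on a single array. ILMN_2931095 had log2 signals of 9.81 and 9.69 in the anterior and 9.80 and 9.87 in the posterior lobes, with overlap and a log2 difference of 0.09 (interval -0.18 to 0.35, adjusted p = 0.81 by limma). ILMN_2931096 had 9.57 and 7.97 in the anterior and 9.72 and 9.52 in the posterior lobes. The array of anterior replicate 2 was low and the other 3 were close together, above the posterior array of replicate 2 in the case of anterior replicate 1, so the groups overlapped. The log2 difference of 0.85 had a standard error of 0.48 and an interval from -0.33 to 2.03 (adjusted p = 0.60 by limma). The probe passed the 1.2-fold criterion with the replicate number as a block (0.85, unadjusted p = 0.0060 by limma) and without normalization (0.84, unadjusted p = 0.047 by limma). The log2 difference was 0.05 without anterior replicate 2 and 1.65 without anterior replicate 1 (adjusted p = 2.4e-05 by limma, the lone anterior array being assumed to vary like the posterior ones).

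The intensity of ILMN_2931096 of 229.6 on the array of anterior replicate 2 was the mean of 27 beads with a standard error of 4.54% of the mean, against 826.3 from 35 beads with 4.83% on that of anterior replicate 1. The bead error covers the measurement within 1 array only. Of the tested probes 98, or 0.451%, had anterior arrays at least as far apart. The 3 probes of other genes nearest to this one, by Euclidean distance between log2 signals centred on their mean over the 4 arrays, were those of MGST3 (ILMN_1238479, distance 0.09), CALM3 (ILMN_1215681, 0.10) and RBM45 (ILMN_3163340, 0.11). Each was low on the same array, with 10.56 for MGST3, 12.45 for CALM3 and 10.06 for RBM45 on the array of anterior replicate 2 against 12.17, 14.09 and 11.65 on that of anterior replicate 1. These probes were chosen for their likeness over the same 4 arrays, so their low signal on that array follows from the choice. The likeness is a description and was not tested.

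**Figure D3:**
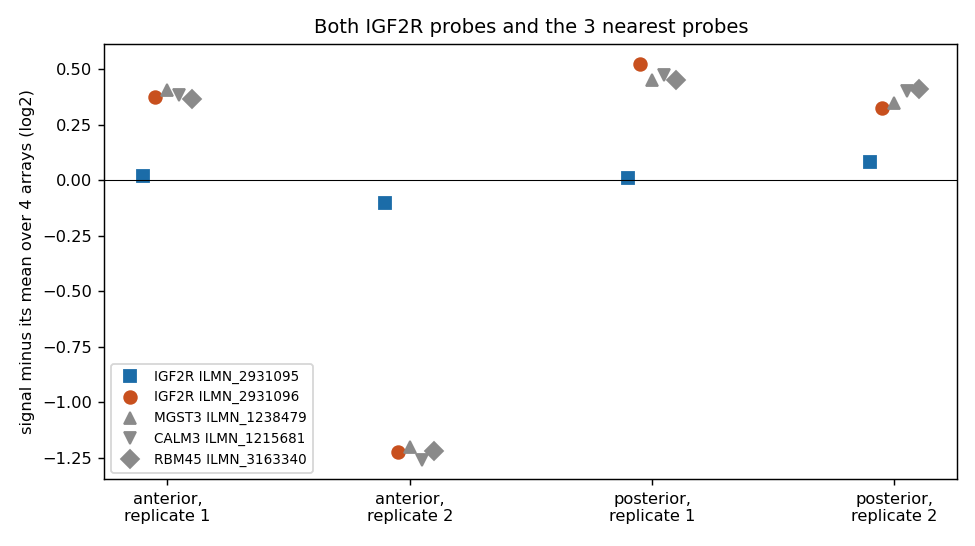
Signal minus its own mean over the 4 arrays (log2) for both IGF2R probes and for the 3 probes most like ILMN_2931096. ILMN_2931096 and these probes lie more than 1 below their means on the array of anterior replicate 2 alone, while ILMN_2931095 stays within 0.2 of its mean on every array.

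The other genes of the pathway were taken from lists of symbols. Of 11 further ligands, receptors and relatives, 5 were tested, 2 had a probe higher by the 1.2-fold criterion and 0 a lower one, with a median log2 difference of 0.26 over the brightest probe of each gene against 0.01 over all tested genes. IGF2, the ligand that IGFBP6 prefers (ILMN_2597769), had 13.29 and 13.52 in the anterior and 13.72 and 14.03 in the posterior lobes, a log2 difference of 0.47 (standard error 0.12, adjusted p = 0.33 by limma) without overlap. IGFBPL1, a gene related to the binding proteins that immature neurons express, had log2 differences of 0.26 (ILMN_2828112, adjusted p = 0.40 by limma), the smallest of these that passed, and of 0.23 (ILMN_2776554, adjusted p = 0.54 by limma). INS1, INS2, INSRR, IGFBP1 and IGF2BP1 were not detected on any array.

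Of 18 proteases that cleave binding proteins and their inhibitors, 13 genes were tested, and 1 was higher and 0 lower by the same criterion. The one was TIMP1, an inhibitor of matrix metalloproteinases, which was 8.49 and 8.47 in the anterior and 8.88 and 8.86 in the posterior lobes with ILMN_2769918, a log2 difference of 0.39 (adjusted p = 0.38 by limma), while its other probe gave 0.15. The median over the list was -0.01. Of 27 genes of signalling below the receptors, 23 were tested. PIK3R1, a regulatory subunit of phosphatidylinositol 3-kinase, was higher by the criterion with a pair of its 3 tested probes, by 0.37 and 0.38 (adjusted p = 0.38 and 0.42 by limma), and had -0.18 with ILMN_3040050, and PIK3R2, another regulatory subunit, had a log2 difference of -0.82 with ILMN_2732317 (adjusted p = 0.33 by limma), from 10.48 and 11.14 in the anterior to 10.06 and 9.92 in the posterior lobes, and of -0.10 with its other probe. The median over this list was 0.02. Of 8 genes of the growth hormone axis, 4 were tested and 0 passed the criterion in either direction, with a median of 0.15. The brightest of them, SOCS2, a feedback inhibitor of growth hormone signalling, had a log2 difference of 0.13. None of the probes in these lists passed an adjusted p of 0.05 by limma.

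Among the markers of other cells given here, most of those of meningeal fibroblasts were higher in the posterior samples. In whole tissue, a change in the number of cells of a type and a change in RNA per cell cannot be told apart. Of 11 genes that mark fibroblasts of the meninges, a list drawn up with earlier results of these data known, all were tested. With any of their probes 7 were higher by the 1.2-fold criterion and 0 lower, and 2 of them, DCN and OGN, passed an adjusted p of 0.05 by limma. On the brightest probe of each of 15615 tested genes, 539 were higher and 697 lower by the criterion, and 20 passed the adjusted p. On their brightest probes 9 of the 11 genes were above both anterior arrays on both posterior arrays, and 1 was below. The summed normalized intensity of their brightest probes was 7169.6 and 7817.7 in the anterior and 12167 and 13479 in the posterior lobes, so it did not overlap and was higher in both posterior samples, as were IGFBP6, both probes of IGFBP2, IGF2 and one of the probes of IGFBP3, ILMN_1219335, while ILMN_2727503 overlapped. IGFBP4 ILMN_1258988, IGF1 ILMN_1225565 and both probes of IGFBPL1 were also higher on both posterior arrays. IGF1 ILMN_2769884 and IGFBP5 ILMN_2964324 were lower on both. Such an order is common, with 21.1% of all tested probes higher and 21.5% lower on both posterior arrays. The part of meningeal cells in the differences of these genes was not tested. Of 9 endothelial genes, 8 were tested and the sum was 12574 and 13977 in the anterior and 13362 and 13072 in the posterior lobes, with 1 gene, CDH5, higher by the criterion on one of its probes. Of 9 genes of pericytes and smooth muscle 8 were tested and 0 passed, with sums of 6025.9 and 7211.2 against 6783.5 and 7309.7. TTR, a carrier protein that the choroid plexus secretes, differed by replicate number and had a log2 signal of 9.10 and 13.34 in the anterior and 8.37 and 11.85 in the posterior lobes, higher on both arrays of replicate 2. Of 9 choroid plexus genes 5 were tested, CLIC6 was lower and OTX2, the only one past an adjusted p of 0.05 by limma, and PRLR were higher in the posterior lobes by the criterion, and the sums were 1797.5 and 11951 against 6178.7 and 8234.7. On their brightest probes 2 of these genes were higher and 3 lower, with a median of -0.21. The study also names OTX2 among genes whose expression differs between compartments of the cerebellum, so it is not a marker of the choroid plexus alone.

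**Figure D4:**
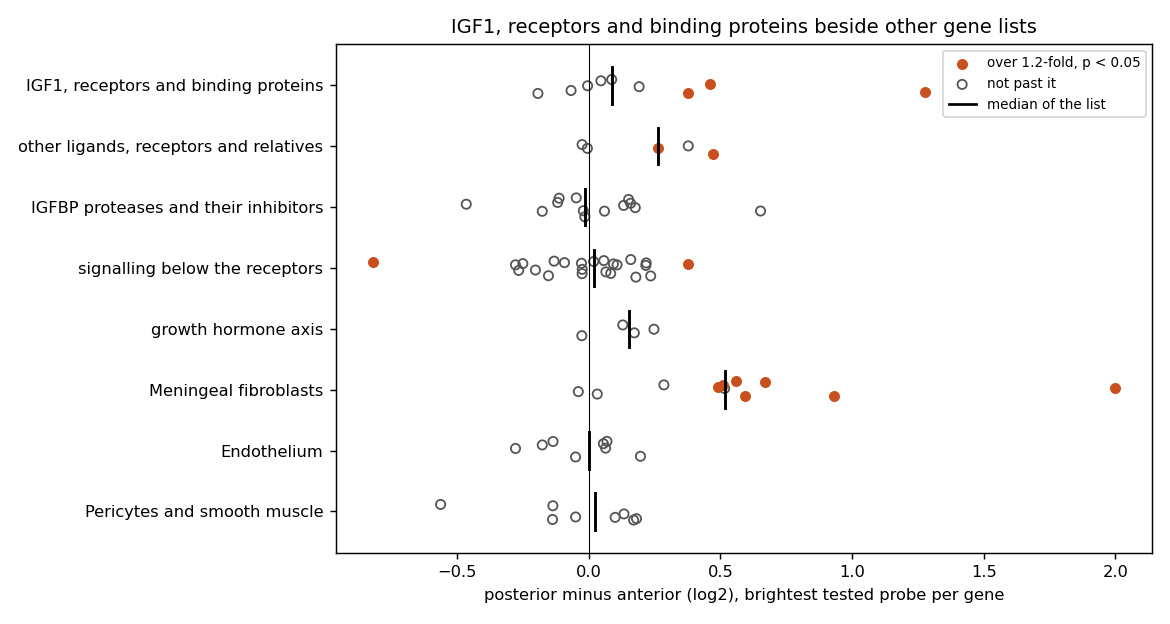
Log2 difference, posterior minus anterior, of the brightest tested probe of each gene, by list, with filled points past the 1.2-fold criterion and a bar at the median of each list. The meningeal fibroblast genes have a median of 0.52 and those of endothelium and of pericytes and smooth muscle medians of 0.00 and 0.03, and among the IGF genes the point farthest to the right is IGFBP6.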

How the data were processed

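The authors deposited, per the file headers, the mean bead intensity of each probe on each array from GenomeStudio 1.9.0 without normalization, the SD of the bead intensity, the count of beads and a detection score, a fraction that is 1 minus the detection p-value. A genome build or aligner does not enter. Another 16 columns were not used. Columns were assigned to samples by the sample numbers in the labels. In R 4.3.3 the 4 arrays were brought to one distribution by quantile normalization, values below 1 were set to 1, and log2 was taken. Testing was limited to probes detected (p below 0.05) on 2 or more arrays and compared the posterior with the anterior lobes by limma 3.58.1 (lmFit, eBayes with an intensity trend) and Benjamini-Hochberg adjustment over all 21726 tested probes. The fit was tried on simulated data with independent noise of one size per probe on the 4 arrays. That simulation left out the correlation by replicate number and the wider anterior spread, so it checks only the computation. The threshold of 1, the log base and the 1.2-fold criterion with p under 0.05 are those of the study's methods. Each probe is reported on its own, under its array symbol.

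The genes and the lists of pathway genes and cell type markers were chosen with earlier results of these data known. Named beside a list are its genes past the criterion (at most 6), or its brightest tested gene where none passed. Symbols on the chip were matched through the RefSeq table of GRCm38.p6, which also gave neighbouring genes. Alternatives were no normalization, a common 75th percentile, cyclic loess, neqc (offset 16), no filter, detection on all 4 arrays, detection p under 0.01, no intensity trend, the methods' t-test (equal variances), the replicate number as a block, a 1.5-fold threshold and leaving out each array.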

Additional observations from a re-analysis of the deposited data

How the results depend on the processing

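None of the 17 probes passed the adjusted p of 0.05 by limma, and 1, that of IGFBP6, passed it without normalization, without a filter on dim probes and with the replicate number as a block, where 0.566%, 0.161% and 2.71% of all tested probes passed it against 0.106%. Leaving out one array gave between 0 and 2, with IGFBP6 and IGF2R ILMN_2931096 without anterior replicate 1, where 12% of all tested probes passed, and IGFBP6 without anterior replicate 2 (1.04%). The adjusted p of IGFBP6 ranged from 0.00036 to 0.57 over the 11 alternatives that tested it, and its measured log2 difference from 1.22 to 1.95. These p-values are a description, since the probe of IGFBP6 entered the main test only through the posterior arrays. The filter removed it when detection on all 4 arrays was required and without either posterior array. The 3 probes past the 1.2-fold criterion became 1 at 1.5-fold, and between 0 and 7 when an array was left out. Both posterior left-out fits take their spread from the wider anterior pair by construction. With the block the criterion gave 4, IGF2R ILMN_2931096 in addition, and 13% of all tested probes against 8.29%. Without normalization IGF2R ILMN_2931096 passed it and IGFBP3 ILMN_1219335 did not, and with the methods' t-test IGFBP2 ILMN_2930897 did not. The labels tie arrays of the same number by nothing else, but over the tested probes replicate 1 minus replicate 2 in one lobe correlated with that in the other (r = 0.46), and XIST and DDX3Y differed by number in both lobes. Of 235 results for single probes under an alternative, 221 kept their direction and their side of the adjusted p, 6 passed it in addition and 8 turned direction. Those that turned were IGFBP5 ILMN_1254358 (0.006 without normalization, 0.0387 with the common 75th percentile, and from -0.1151 to 0.109 without one array, turned without anterior replicate 1 or posterior replicate 1), IGFBP5 ILMN_2682613 (from -0.044 to 0.2132 without one array, turned without either replicate 2 array), IGF1R ILMN_1239663 (from -0.2331 to 0.4959, turned without anterior replicate 1) and IGFBP7 ILMN_2764588 (from -0.0465 to 0.1379, turned without anterior replicate 2), and the cause was not tested. All alternatives named here were planned. The 5 of 22 probes not detected on any array give no difference.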

Other observations

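Markers of the remaining cell types are given as values. Of 11 genes of the oligodendrocyte lineage, 10 were tested, 8 were lower and 1, PDGFRA, higher in the posterior lobes by the 1.2-fold criterion, with a median log2 difference of -0.68. On the brightest probe of each of 15615 tested genes, 539 were higher and 697 lower by this criterion. PDGFRA, which fibroblasts of the meninges express too, was higher by 0.47 (adjusted p = 0.16 by limma). Of the unipolar brush cell genes CALB2 was higher with both probes, by 0.44 and 0.37. Of 8 microglial genes 6, of 5 genes of GABAergic interneurons 2 and of 3 genes of red blood cells 3 were tested, and 0 in each passed the criterion, with medians of 0.06, -0.17 and 0.11. Of the 8 tested granule neuron genes 1, ZIC2, was higher and 0 lower by the criterion, with a median of 0.06, and 5 were higher and 3 lower on their brightest probe. ZIC2 had 0.72 with ILMN_2470518 (adjusted p = 0.39 by limma) and 0.14 with ILMN_1252072 (adjusted p = 0.72 by limma). SLC17A7 (-0.22, unadjusted p = 0.024, adjusted p = 0.42 by limma) and BARHL1 (-0.30, adjusted p = 0.53 by limma) were below both anterior arrays on both posterior arrays. On their brightest probes 4 genes of this list, ZIC1, ZIC2, MKI67 and NEUROD1, were above both anterior arrays on both posterior arrays. Of all tested probes 21.1% were higher and 21.5% lower in this way. Further, of the Purkinje cell and of the Bergmann glia and astrocyte genes 0 passed.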
